A study of Mus musculus with 24 samples.

Results

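TRBV17, the mouse T cell receptor beta (TCRβ) variable segment also listed under the older name Tcrb-V9, held 5653 of the 47705 TCRβ clonotypes retained from 24 CT26 tumors, which is 11.8% of the clonotypes, and 2123943 of the 7463100 counts, which is 28.5%. Its members were chosen by their V segment: every TCRβ row assigned to TRBV17, without a stop mark and with at least 2 counts, where a clonotype is one CDR3 amino acid sequence with one V and one J segment. The segment itself was chosen by its measured level, expansion and recurrence in these tumors, so those values are given as a description with no test. Of the TRBV17 rows without a stop mark, 41713 held 1 count and fell just outside the limit, and 4728 held 2 counts and fell just inside it.

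CT26.CL25 colon carcinoma cells, a mouse line grown in G418, were inoculated under the skin of both flanks of female BALB/c mice aged 7 to 9 weeks, and RNA was taken from each whole tumor, 2 tumors in each of 12 mice. In the time-matched group (mice 6, 12 and 14) both tumors were taken on day 13 with no treatment. In the time-separated group (mice 4, 17 and 19), also untreated, one tumor was excised on day 9 and the other on day 20. The decitabine (DAC, a DNA methyltransferase inhibitor) groups had the same surgery and interval and received 0.5 mg/kg (mice 3, 11 and 20) or 2 mg/kg (mice 7, 10 and 16) on 5 consecutive days starting 3 days after surgery, so that in each of these mice the excised tumor predates DAC and only the remaining tumor was exposed to it. Tumors are numbered 1 and 2 in the labels with neither flank nor harvest day, so the numbers were not used as an order in time. The labels do not tell which tumor of a DAC mouse was exposed. Retained counts ran from 63291 to 887567 per tumor. In tumor RNA, fewer T cells of a clone and less receptor RNA per cell cannot be told apart.

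A TCRβ chain is assembled in the thymus from one V, one D and one J segment, and bases are trimmed and added at the joints. The joint encodes the third complementarity determining region (CDR3), the loop that mostly faces the peptide, while the V segment encodes the other loops. One amino acid CDR3 can arise from several nucleotide joints, so the same CDR3 in different mice with different nucleotides marks separate rearrangements, whereas identical nucleotides do not tell separate rearrangements from carry-over between libraries.

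The recurrent CDR3s are shown first because their nucleotides tell separate joints apart. Of the 82 TRBV17 clonotypes that reached a mean of 0.1% of counts in at least 1 mouse, 11 did so in at least 2 mice. Of these 11 clonotypes, 10 had a CDR3 of 11 residues, and 8 had more than 1 main nucleotide sequence among the mice in which they reached 0.1%. The main sequences of 3 of these 8 clonotypes follow as the deposited tables give them, 5′ to 3′ from the first to the last CDR3 codon. Capitals mark the bases that differ between mice.

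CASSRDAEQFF, TRBJ2-1, mouse 6: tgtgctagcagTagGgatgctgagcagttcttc
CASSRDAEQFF, TRBJ2-1, mice 12 and 19: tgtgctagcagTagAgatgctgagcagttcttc
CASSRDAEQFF, TRBJ2-1, mouse 14: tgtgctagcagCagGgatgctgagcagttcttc
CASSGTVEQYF, TRBJ2-7, mouse 7: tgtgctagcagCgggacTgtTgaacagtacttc
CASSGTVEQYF, TRBJ2-7, mouse 16: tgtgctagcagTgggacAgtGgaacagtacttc
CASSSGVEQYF, TRBJ2-7, mouse 10: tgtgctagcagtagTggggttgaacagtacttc
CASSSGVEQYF, TRBJ2-7, mouse 17: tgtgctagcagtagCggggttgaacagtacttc

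The capitals lie at base 12, base 15 or, for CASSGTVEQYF, also bases 18 and 21. The first 11 bases, tgtgctagcag, were the longest start held by most of the distinct TRBV17 sequences, at 52.7% of 8939 productive sequences and 56.7% of 2618 sequences with a stop mark. Each printed form made up between 97.2% and 99.3% of its clonotype's counts in the mice named.

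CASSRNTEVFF, clonotype 1 in the map of recurrent clonotypes, reached 0.1% in 8 of the 12 mice, in all groups. Its main nucleotide sequence had 3 forms in these 8 mice, one shared by mice 4, 10, 19 and 20, one by mice 6, 11 and 17, and one in mouse 7, so the 8 mice are not shown to hold 8 separate joints. It was highest in mouse 11, at 6.21% of counts in tumor 1 and 7.04% in tumor 2. It stood at 0.905% and 1.43% in mouse 6, at 2.43% and 0.332% in mouse 4, at 2.09% and 1.70% in mouse 17, and at 1.90% and 2.54% in mouse 19. In the remaining mice that reached the level it stood at 0.660% and 3.06% in mouse 20, at 3.12% and 0.699% in mouse 7, and at 0.0969% and 0.475% in mouse 10. The tumors of mice 11 and 17 were therefore close to each other, while those of mice 4, 20, 7 and 10 differed by more than 4-fold. In mice 12, 14 and 16 it was retained below 0.1%, and in mouse 3 it was not retained in either tumor, where 3 counts, the number taken as the limit for a count of 0, would be 0.00161% and 0.00474% of counts.

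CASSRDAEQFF (clonotype 2) was retained in all 12 mice but dominated 1 of them. It made up 56.1% of the counts of tumor 1 and 56.2% of tumor 2 of mouse 6. It stood at 0.735% and 0.874% in mouse 12, at 1.03% and 0.795% in mouse 14, and at 2.10% and 3.43% in mouse 19. In the other 8 mice it held at most 212 counts in a tumor, and in 7 of these 8 mice its main nucleotide sequence was that of mouse 6. This was therefore a clonotype with at least 3 nucleotide forms, with most low occurrences sharing the form of the tumor pair in which it was abundant.

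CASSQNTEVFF (clonotype 3, TRBJ1-1) made up 17.0% and 16.8% of counts in mouse 12, and stood at 0.254% and 0.484% in mouse 17 and at 0.747% and 0.302% in mouse 19, where base 12 differed from that of mouse 12. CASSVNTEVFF (clonotype 8, TRBJ1-1) stood at 12.5% and 9.93% in mouse 14, and at 0.470% and 1.07% in mouse 11 with another base 15. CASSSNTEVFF (clonotype 10, TRBJ1-1) stood at 0.861% and 0.0358% in mouse 7 and at 0.0671% and 0.575% in mouse 10, again with different nucleotides. These differ from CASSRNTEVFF at one residue each, the fifth of the CDR3.

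Among the TRBJ2-7 clonotypes, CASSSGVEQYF (clonotype 6) stood at 6.89% and 19.0% of counts in mouse 10 and at 1.44% and 4.95% in mouse 17. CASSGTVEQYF (clonotype 7) stood at 7.06% and 8.31% in mouse 16 and at 4.16% and 6.38% in mouse 7. Both had different nucleotide forms in their pair of mice. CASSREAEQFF (clonotype 11, TRBJ2-1) stood just inside the limit, at a mean of 0.211% in mouse 6 and 0.102% in mouse 16, and the nearest clonotype outside it was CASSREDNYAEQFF, at 10.3% in mouse 11 and 0.0811% in mouse 10.

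The other 3 recurrent clonotypes had the same main nucleotide sequence in every mouse in which they reached 0.1%. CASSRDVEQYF (clonotype 4, TRBJ2-7) stood at 5.63% and 4.50% in mouse 14, at 4.96% and 0.536% in mouse 11, and at 0.0163% and 0.554% in mouse 20. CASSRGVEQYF (clonotype 5, TRBJ2-7) stood at 15.4% and 16.6% in mouse 17 and at 0.0104% and 0.771% in mouse 20. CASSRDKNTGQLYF (clonotype 9, TRBJ2-2), with 14 residues, stood at 2.76% and 13.6% in mouse 3 and at 1.36% and 1.11% in mouse 16. Their sequences are shown because a single form was found.

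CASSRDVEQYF, mice 11, 14 and 20: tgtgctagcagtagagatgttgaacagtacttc
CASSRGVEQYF, mice 17 and 20: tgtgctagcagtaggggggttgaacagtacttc
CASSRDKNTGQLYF, mice 3 and 16: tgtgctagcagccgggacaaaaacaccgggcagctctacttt

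**Figure D1:**
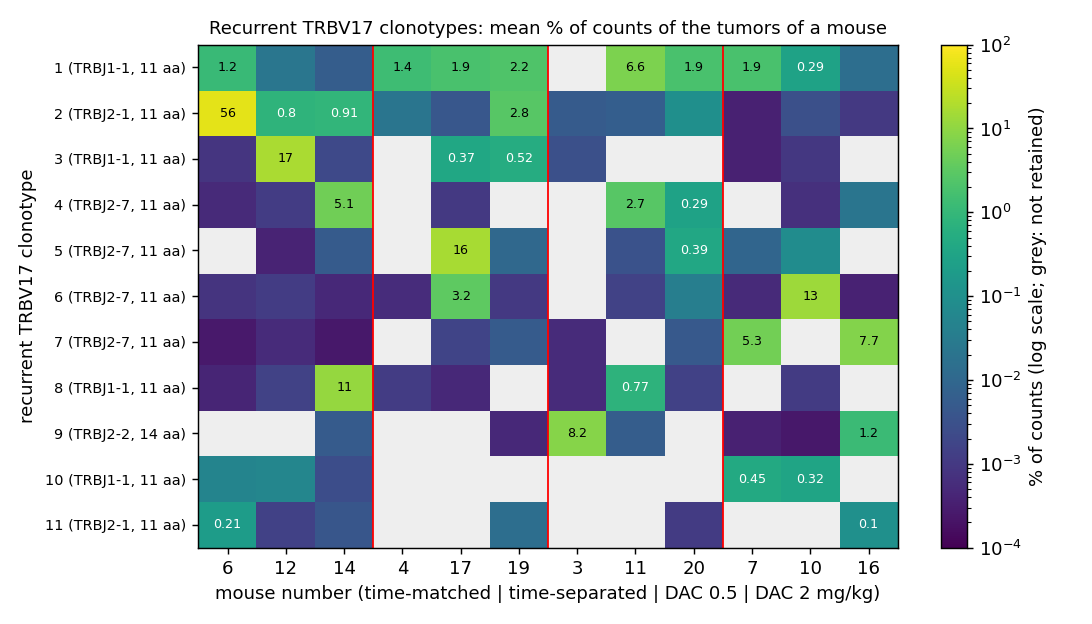
Colour gives the mean share of counts (percent, logarithmic scale) of each of the 11 recurrent TRBV17 clonotypes, in rows, in each of 12 mice, in columns ordered by group, with grey where none was retained and numbers printed from 0.1% upwards. Clonotype 1 passes that level in 8 mice, and clonotype 2 reaches 56.2% in mouse 6.

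Together the 11 recurrent clonotypes made up between 0.340% and 57.9% of all counts of a tumor. Of the counts assigned to TRBV17 they made up 91.3% and 89.4% in mouse 6, and only 2.72% and 11.2% in mouse 20, so the weight of the shared set differed widely between mice. Across V segments, 11 of 82 TRBV17 clonotypes of at least 0.1% (13.4%) reached that level in 2 or more mice, against 27 of 519 (5.20%) for the other V segments combined. TRBV19 was at a like level, with 6 of 41 clonotypes (14.6%), and TRBV13-1 was lower, with 6 of 98 (6.12%). More than 1 main nucleotide form was found for 21 of the 27 recurrent clonotypes of other V segments, and 2 of these 27 had 11 residues.

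Counting any retained occurrence, 39 TRBV17 clonotypes (0.690%) were found in at least 6 mice, against 50 (0.119%) of the other V clonotypes. This count rests partly on sequences close to an abundant one. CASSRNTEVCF, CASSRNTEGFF and WASSRNTEVFF, which differ from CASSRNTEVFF at one residue, were each found in 9 mice with at most 67 counts in a tumor. In an alternative, sequences 1 base away from one at least 100 times as abundant in the same tumor were merged into it. After merging, 16 of 4142 TRBV17 clonotypes were found in at least 6 mice. No merged count is given for the other V segments, so the contrast of 0.690% against 0.119% holds for unmerged sequences only. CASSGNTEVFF was also found in 9 mice and reached 0.113% in tumor 1 of mouse 14.

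Low counts of identical sequences also ran across libraries. The main nucleotide sequence of the largest TRBV17 clonotype of mouse 19, a TRBJ2-7 clonotype with 16 residues at 7.78% and 19.7% of counts, was retained in 14 of the 22 libraries of other mice and in all 11 of these mice, with a median of 3.5 and at most 23 counts. The spread differed between sequences: the main nucleotide sequences of the largest TRBV17 clonotypes of mice 7, 20 and 11 were retained in 1, 1 and 2 of the 22 other libraries. In the 5 mice whose largest clonotype had another V segment, its main nucleotide sequence was retained in 16 of 22 libraries (TRBV13-2, mouse 16), 15 (TRBV13-2, mouse 12), 13 (TRBV13-1, mouse 14), 4 (TRBV13-3, mouse 4) and 4 (TRBV19, mouse 3), with at most 15 counts. The sequence of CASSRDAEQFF from mouse 6 was retained in 20 of 22 other libraries with at most 185 counts. Whether these low counts came from shared rearrangements or from carry-over was not tested, and the level of 0.1% used for the 11 clonotypes lies above most of them. Mice that share a main form are not told apart from carry-over by their nucleotides. This holds for the 3 clonotypes with a single form, for clonotype 1 within both sets of mice that share a form, for clonotype 2 in mice 12 and 19 and for clonotype 3 in mice 17 and 19. The highest count in a tumor outside the top mouse was 9875 for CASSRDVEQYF (mouse 11), 743 for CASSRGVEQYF (mouse 20) and 12112 for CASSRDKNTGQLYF (mouse 16).

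TRBV17 had the highest mean share of counts of any V segment, at 27.8% ± 13.9 (SD, n = 12 mice), and the highest share in 5 of the 12 mice. Without the largest TRBV17 clonotype of each mouse the mean was 15.0%. TRBV13-1 followed with 20.5% ± 11.5, TRBV13-2 with 14.8% ± 12.9, TRBV19 with 5.43% ± 3.74 and TRBV4 with 5.11% ± 4.33, all over the same mice. TRBV17, TRBV13-1 and TRBV13-2 did not stand apart from each other by their spread between mice.

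In the time-matched group TRBV17 made up 62.7% and 64.8% of counts in mouse 6, with 28.8% and 26.6% for mouse 12 and 23.1% and 18.6% for mouse 14. In the untreated time-separated group it made up 7.85% and 8.21% in mouse 4, with 25.1% and 28.7% for mouse 17 and 21.1% and 42.8% for mouse 19. Mouse 6 was the highest and mouse 4 the lowest of all 12 mice. Counting error was small beside this spread if each count is taken as an independent draw. In tumor 2 of mouse 3, the shallowest library, the 21.9% had an exact 95% binomial interval of 21.6% to 22.2%. This interval does not cover amplification or the sampling of T cells.

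In the mice of the 0.5 mg/kg DAC group it made up 19.2% and 21.9% in mouse 3, with 36.2% and 18.9% for mouse 11 and 32.5% and 40.0% for mouse 20. In the 2 mg/kg DAC group it made up 15.6% and 26.5% in mouse 7, with 29.8% and 38.2% for mouse 10 and 11.8% and 18.5% for mouse 16. The group means were 37.4% ± 23.1 (SD, n = 3 mice) for time-matched, 22.3% ± 12.6 for time-separated, 28.1% ± 7.85 for 0.5 mg/kg and 23.4% ± 9.64 for 2 mg/kg, and the ranges of the groups overlapped. Each mean of a DAC group mixes tumors taken before and after treatment.

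**Figure D2:**
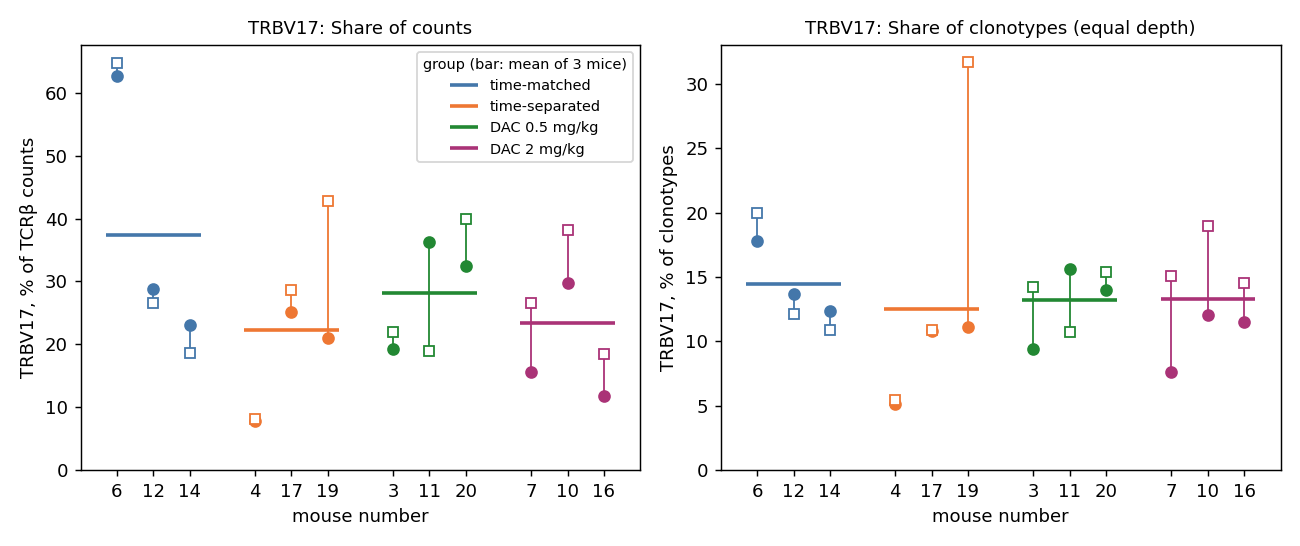
Each vertical line joins the tumors of a mouse (filled circle, tumor 1; open square, tumor 2) for the TRBV17 share of counts on the left and of clonotypes at equal depth on the right, both in percent, with a bar at the mean of 3 mice per group. Mouse 6 stands highest for counts, at 62.7% and 64.8%, and tumor 2 of mouse 19 highest for clonotypes, at 31.7%.

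At an equal depth of 63291 counts per tumor, TRBV17 held a mean of 13.4% ± 4.08 (SD, n = 12 mice) of the clonotypes, from 5.29% in mouse 4 to 21.4% in mouse 19. The share of counts was also divided by the share of distinct clonotypes of both tumors, taken without thinning. This ratio, a measure of how far a segment's counts lie in large clonotypes, was above 1 for TRBV17 in each mouse. It ran from 1.12 in mouse 16 to 3.16 in mouse 6, with a mean of 2.11 ± 0.56. Among V segments with at least 1% of counts this was the highest, followed by 1.17 ± 0.38 for TRBV13-1 and 0.99 ± 0.57 for TRBV13-2. Without the largest TRBV17 clonotype of each mouse it was 1.17, with the other segments left as they were. With at least 10 counts required it was 3.42.

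The segments whose mean share over the 12 mice ran most like that of TRBV17 were TRBV5 (Spearman rho 0.48), TRBV26 (0.43) and TRBV4 (0.42). The shares of one mouse sum to a whole, so these values are tied to each other, and TRBV26 held a mean of 0.0200% of counts.

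**Figure D3:**
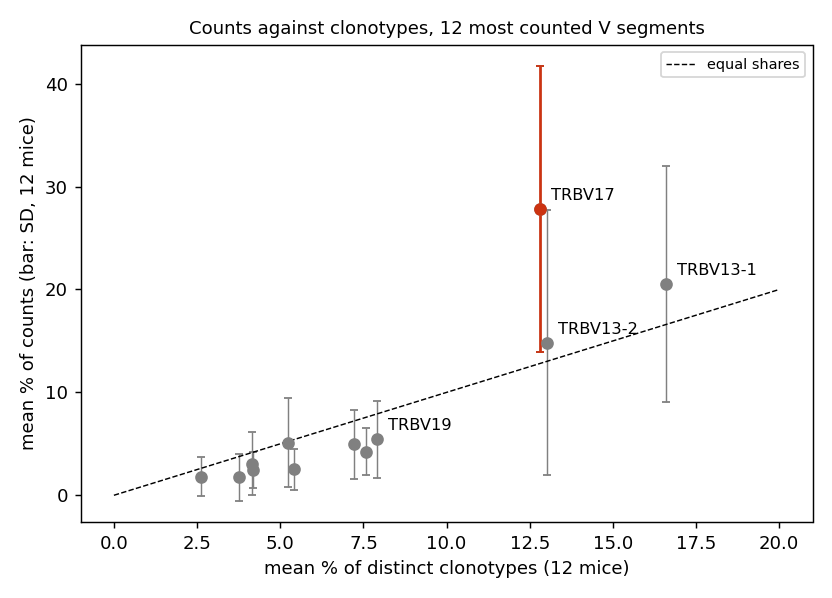
Points give the mean share of counts (percent, bars the SD over 12 mice) against the mean share of distinct clonotypes (percent) for the 12 V segments with most counts, with TRBV17 in red and a dashed line at equal shares. TRBV17 lies at 27.8% of counts and 12.8% of clonotypes, and TRBV13-1 at 20.5% and 16.6%.

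The largest TRBV17 clonotype of a mouse held between 41.5% and 88.1% of the TRBV17 counts, as the mean of the largest one in each tumor, and in 7 of the 12 mice the largest clonotype of any V segment was a TRBV17 clonotype. These were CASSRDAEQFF in mouse 6, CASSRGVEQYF in mouse 17, the TRBJ2-7 clonotype with 16 residues in mouse 19, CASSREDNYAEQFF in mouse 11, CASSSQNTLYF in mouse 20, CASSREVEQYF in mouse 7 and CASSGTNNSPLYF in mouse 10. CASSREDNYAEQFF (TRBJ2-1) stood at 16.7% and 3.83% of counts, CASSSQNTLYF (TRBJ2-4) at 6.28% and 19.5%, and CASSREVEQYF (TRBJ2-7) at 0.606% and 15.9%. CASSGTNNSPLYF (TRBJ1-6) stood at 18.9% and 13.9%.

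In the other 5 mice another segment had the largest clonotype, and the leading TRBV17 clonotypes were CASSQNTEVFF in mouse 12, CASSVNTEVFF in mouse 14, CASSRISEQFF in mouse 4, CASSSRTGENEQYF in mouse 3 and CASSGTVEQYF in mouse 16. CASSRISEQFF (TRBJ2-1) stood at 4.32% and 6.10%, and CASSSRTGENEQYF (TRBJ2-7) at 13.3% and 3.83%. Of the 12 leading clonotypes, those of mice 6, 12, 14, 16 and 17 were also among the recurrent ones.

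The CDR3s of TRBV17 were shorter than those of the other segments, which is given as a description because short CDR3s were in view when TRBV17 was chosen. The mean length over distinct clonotypes was 12.7 ± 1.17 residues (SD, n = 12 mice) for TRBV17 and 13.9 ± 0.19 for the other V segments. The difference was -1.26 ± 1.19 residues and was negative for all but mice 3 and 19. Mouse 19, at 15.7 against 14.0 residues, and mouse 3, at 13.8 against 13.8, were the exceptions. Over clonotypes of at least 0.1% in the mouse, a limit chosen after the data were seen, the difference was -1.41 residues.

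By counts the shift lay in a single length. CDR3s of 11 residues held 66.3% ± 32.2 (SD, n = 12 mice) of the TRBV17 counts and 7.06% ± 6.63 of the counts of other V segments. The share was above 80% in 6 mice, at 98.5% in mouse 17, 96.8% in mouse 6, 95.6% in mouse 14, 89.4% in mouse 7, 89.4% in mouse 4 and 88.8% in mouse 20. It was 67.1% in mouse 12, 60.4% in mouse 16, 42.0% in mouse 11, 40.5% in mouse 10, 23.0% in mouse 19 and 4.34% in mouse 3. Mouse 3 was the only mouse in which TRBV17 had a lower share of 11 residues than the other segments, at 11.5%. Of the 82 TRBV17 clonotypes of at least 0.1%, 47 had 11 residues (57.3%), against 35 of 519 (6.74%) for the other segments, and none of the 82 had 10 or fewer.

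**Figure D4:**
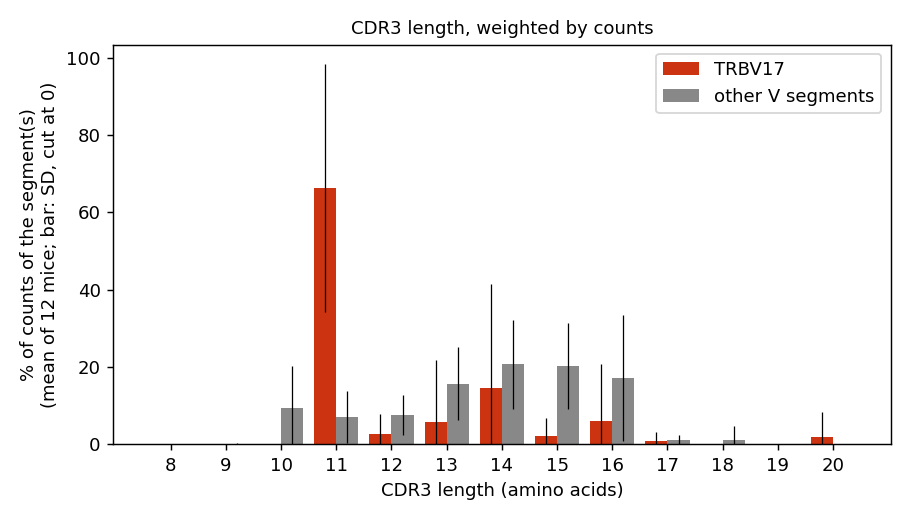
Bars give the mean share of counts (percent, over 12 mice; error bars the SD, cut at 0) at each CDR3 length in amino acids for TRBV17 in red and for the other V segments in grey. TRBV17 peaks at 11 residues with 66.3%, where the other segments hold 7.06%.

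Most 11-residue clonotypes fell into 3 families, each with one J segment and members joined by single-residue differences. Of the 82 clonotypes of at least 0.1%, 45 fell into 6 families and 37 stood alone. The TRBJ2-1 family had 15 members, led by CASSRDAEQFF and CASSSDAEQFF, and reached 0.1% in 7 mice, with 58.0% in mouse 6 and 13.0% in mouse 20. Several of its members, such as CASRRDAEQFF, passed the level next to a parent at 56.2% of counts in mouse 6. The TRBJ2-7 family had 14 members, led by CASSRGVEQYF and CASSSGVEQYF, and reached 0.1% in 8 mice, with 22.6% in mouse 17, 13.7% in mouse 7 and 13.2% in mouse 10. The TRBJ1-1 family had 10 members, led by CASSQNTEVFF and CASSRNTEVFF, and reached 0.1% in 10 mice, with 17.0% in mouse 12, 12.9% in mouse 14 and 7.41% in mouse 11. The remaining 3 families had 2 members each.

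Short runs at CDR3 positions 5 to 7, counted from the first cysteine, were read in CDR3s of at least 11 residues. Of 756 runs found with TRBV17, 53 were found in at least 6 mice and 5 in all 12. No such count is given for runs of the other V segments, so whether this recurrence is particular to TRBV17 was not tested. RDA was in 296 TRBV17 clonotypes with 27.9% of the TRBV17 counts, nearly all at 11 residues with TRBJ2-1, and in 3 clonotypes of other V segments. RDQ was in 390 TRBV17 clonotypes with 4.92% of counts, 49.3% of them at 16 residues, and in 1 clonotype of other segments. RGG, RGT and RDT were also in all 12 mice but held 0.0852%, 0.0490% and 0.0332% of TRBV17 counts. They were in 59, 27 and 20 TRBV17 clonotypes, which is 1.04%, 0.478% and 0.354% of those with at least 11 residues. They were also in 58, 38 and 22 clonotypes of other V segments, which is 0.143%, 0.0936% and 0.0542%. The dominant TRBV17 clonotype of mouse 6 carries RDA and that of mouse 19 carries RDQ. How many of the other clonotypes with these runs lie next to them was not counted. An arginine at position 5 was common: 34 of the 82 TRBV17 clonotypes of at least 0.1% began with CASSR (41.5%), against 11 of 519 for other segments (2.12%), while CASS was common to 86.6% and 57.6%.

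J partners of TRBV17 are given with no test, since the clonotypes for which TRBV17 was chosen carry few J segments and J shares of a mouse sum to a whole. Over distinct clonotypes, TRBJ1-2 held 0.48% ± 0.46 (SD, n = 12 mice) of the TRBV17 clonotypes against 5.13% ± 1.66 of the others, and was lower in each of the 12 mice. TRBJ1-4 held 0.87% ± 0.79 against 6.32% ± 1.77, and TRBJ2-3 held 1.79% ± 2.26 against 9.01% ± 2.42, each again lower in all 12 mice. TRBJ1-3 held 0.87% ± 1.48 against 4.71% ± 1.14 and was lower in 11 mice. TRBJ2-4 held 4.39% ± 7.03 against 10.8% ± 6.12 and was lower in 10 mice. TRBJ2-5 held 6.08% ± 8.76 against 13.8% ± 4.32 and was also lower in 10 mice. Its difference of -7.76 percentage points was -4.71 with at least 10 counts and -13.7 when weighted by counts.

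The segments of the 3 families had higher means that varied widely between mice. Outside these families TRBJ2-2 also had a higher mean, at 8.97% ± 10.5 against 4.84% ± 0.97, and was higher in 5 mice. TRBJ2-7 held 28.7% ± 19.5 of TRBV17 clonotypes against 18.3% ± 2.56 of the others and was higher in 7 of 12 mice, with a difference of 10.4 percentage points that was 6.90 without mouse 17. TRBJ2-1 held 22.6% ± 22.7 against 13.8% ± 1.87 and was higher in 6 mice, with a difference of 8.80 percentage points that was 4.64 without mouse 6 and 5.64 without mouse 4. TRBJ1-1 held 18.8% ± 15.6 against 7.78% ± 2.38 and was higher in 8 mice. Its difference of 11.0 percentage points was 7.30 without mouse 14 and ran, over the alternatives, from 5.84 over clonotypes found in 1 mouse only to 16.6 over clonotypes of at least 0.1%. By counts, these 3 J segments together held between 45.3% of the TRBV17 counts, in mouse 10, and 98.7%, in mouse 17, and between 21.1% and 63.3% of the counts of other V segments. In mouse 10 the other segments were higher, at 56.0%, and in mouse 3 the values were 53.0% for TRBV17 and 51.6% for the others.

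The overlap of the TRBV17 clonotypes between the tumors of a mouse addressed whether harvest time or treatment moved with the sharing of clones. It was measured by the Morisita-Horn index, which runs from 0 for no shared clonotype to 1 for equal composition. In the time-matched group the index reached 0.999 (mouse 6), 0.994 (mouse 12) and 0.999 (mouse 14). In the untreated time-separated group the index reached 0.881 (mouse 4), 0.978 (mouse 17) and 0.963 (mouse 19). It was 0.459, 0.740 and 0.771 in mice 3, 11 and 20 of the 0.5 mg/kg DAC group, and 0.330, 0.827 and 0.733 in mice 7, 10 and 16 of the 2 mg/kg group, in each case between a tumor taken before and one taken after DAC.

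All 9 time-separated mice lay below the lowest time-matched mouse. The same was so for the other V segments, with 0.966 to 0.982 in time-matched and 0.376 to 0.957 in time-separated mice. The mean for TRBV17 was 0.742 ± 0.219 (SD, n = 9) against 0.997 ± 0.003 (n = 3), a difference of -0.255 that did not pass the test on means (exact permutation test, two-sided, p = 0.0636, adjusted over 5 tests 0.205). Against the 3 untreated time-separated mice the difference was -0.0567 (exact permutation test, p = 0.10, the smallest that 3 against 3 allows). It was -0.266 (exact permutation test, p = 0.20) without the largest TRBV17 clonotype of each mouse, and -0.0269 without mouse 4. Among the 3 time-separated groups the means were 0.941 ± 0.052, 0.657 ± 0.172 and 0.630 ± 0.264 (exact permutation test of the 3 groups, n = 9, p = 0.164). Retained counts ran from 375898 to 610800 in time-matched tumors, from 97815 to 207072 in untreated time-separated tumors, from 63291 to 199081 in the 0.5 mg/kg group and from 64192 to 887567 in the 2 mg/kg group, and the difference of 9 against 3 mice was -0.255 both at equal depth and without thinning. The p of the 3 groups fell to 0.0357 without mouse 7, and the p of 9 against 3 fell to 0.0364 without mouse 17 or without mouse 19.

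The TRBV17 overlap was higher than that of the other V segments for 9 mice out of 12, with a mean difference of 0.0553 ± 0.240 (exact sign-flip permutation test, n = 12 mice, p = 0.437). This difference was 0.00687 without mouse 19 and 0.0931 without mouse 7. In mouse 19 it was 0.963 against 0.376 for the other segments, and in mouse 7 it was 0.330 against 0.691. The direction therefore differed between mice. The size of the change in the TRBV17 share between tumors was taken as an absolute log2 ratio. It was 0.16 ± 0.14 in time-matched mice, from 0.0470 to 0.320. In the 9 time-separated mice it was 0.50 ± 0.35, from 0.0614 to 1.02, so the ranges overlapped. No test is given, since TRBV17 was chosen by its level.

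**Figure D5:**
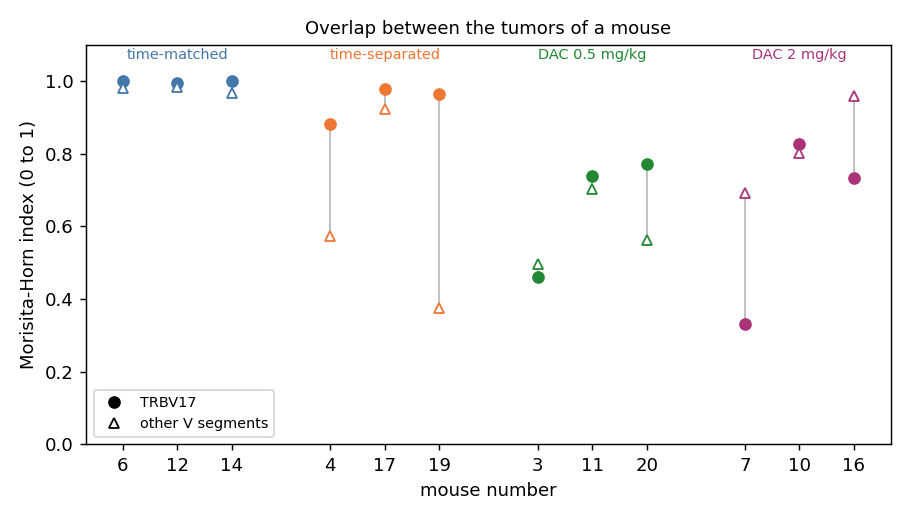
Points give the Morisita-Horn index (0 to 1) between the tumors of each mouse for TRBV17 clonotypes (filled circles) and for clonotypes of the other V segments (open triangles), joined by a line per mouse and coloured by group. All 3 time-matched mice lie at 0.994 or above for TRBV17, and mouse 7 is lowest at 0.330.

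Single clonotypes showed the same spread. Of the TRBV17 clonotypes of at least 0.1%, 3 of 18 differed by more than 2-fold between the tumors of mouse 6, and none of 7 did so in mouse 12 or in mouse 14. In the time-separated mice the share was lowest in mouse 17, with 4 of 11, and highest in mouse 3, with 5 of 6. No such share is given for the other V segments, so whether these changes are particular to TRBV17 was not tested. The largest change in the time-matched group was that of a TRBJ1-3 clonotype with 16 residues in mouse 6, at 0.504% and 1.33%. In the other groups a clonotype was retained in one tumor and not in the other: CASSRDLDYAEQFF with 680 counts in mouse 4, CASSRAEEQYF with 300 counts in mouse 11 and a TRBJ2-1 clonotype with 15 residues with 935 counts in mouse 10.

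Sequences with a stop mark include those out of frame. Whether they were rearrangements of their own or copies of productive sequences with an error was not tested. TRBV17 made up 12.5% of distinct stop-marked sequences and 15.4% of productive ones, a difference of -2.93 ± 2.10 percentage points that was negative for every one of the 12 mice. No test is given, since TRBV17 was chosen by its level among productive sequences. The direction turned when at least 10 counts were required, at 9.10 percentage points, and merging of near-identical sequences left -1.87 percentage points.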

How the data were processed

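TCR libraries were made from whole-tumor RNA with a kit that carries molecular identifiers and were processed by the authors with the Cogent NGS Immune Profiler. The deposited tables give a read count per CDR3 nucleotide sequence with V and J segment and a stop mark. The deposited column and the study call the counts reads, after an analysis based on these identifiers. How the identifiers entered the counts, and the genome build, are not given in the sources used here. Only the TCRβ tables were used. The TCRα tables were not analysed here.

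Rows with a stop mark or 1 count were left out, as in the study. Of the TRBV17 rows without a stop mark, 76.4% held 1 count, and these held 1.93% of the counts. A clonotype was one CDR3 amino acid sequence with one V and one J. For overlap and for the clonotype shares given at equal depth, each tumor was thinned to 63291 counts, as the mean of 20 draws. Shares of distinct clonotypes, CDR3 lengths and J partners used all retained clonotypes of a mouse without thinning. Shares of counts used all retained counts, and exact 95% binomial intervals cover counting error only. At the lowest depth 3 counts are 0.00474% of a tumor.

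The mouse was the unit of each test: exact permutation tests between groups and exact sign-flip tests over 12 mice, two-sided, with Benjamini-Hochberg adjustment over 5 tests. CDR3 length, J partners, the stop-marked share and the change in share between tumors are given with no test because the choice of TRBV17 bears on each. The 5 tests of the adjustment include that change in share, whose p is not given. Code was tested on simulated data. Python 3.11.15, numpy 2.4.6, scipy 1.17.1 and matplotlib were used. The members, lists and tests were chosen with earlier results of these data known. Clonotypes named are the largest of each mouse, the 10 found in most mice, those changing most between tumors in each group, and, added after the data were seen, those of at least 0.1% in 2 or more mice. CDR3s of 15 or more residues are given by J segment and length only, and some nucleotide sequences are not reported here. Alternatives were the count limit, merging, the clonotype definition, thinning, and leaving out the largest TRBV17 clonotype or each mouse. RefSeq was used only for the older name.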

Additional observations from a re-analysis of the deposited data

Results flagged for a closer look

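One of 19 sets of values looked at held a value far from its neighbours, which is given as a description. TRBV17 was chosen by its level and each mouse gives 2 tumors, so no chance rate is given. In tumor 2 of mouse 19, of the time-separated group, TRBV17 made up 31.7% of clonotypes at equal depth, and the next of the 6 tumors in that group was at 11.1%. The gap was 0.774 of the whole range. In this tumor the TRBJ2-7 clonotype with 16 residues held 19.7% of counts.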

How the results depend on the processing

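The TRBV17 share of counts, 27.8% as the mean of 12 mice, ran from 24.5% to 29.6% when each mouse was left out and was 15.0% without the largest TRBV17 clonotype of each mouse. The count of clonotypes in at least 6 mice was 39, and became 127 with all counts kept, 7 with at least 10 counts, 16 after merging and 18 with clonotypes defined by nucleotides. Leaving out each mouse gave 34 to 38. The 11 clonotypes of at least 0.1% in 2 or more mice became 7 when defined by nucleotides, and 8 to 11 without each mouse. Short runs found in at least 6 mice went from 53 to 166 with all counts kept and to 22 with at least 10 counts. The ratio of count share to clonotype share, 2.11, was 3.42 with at least 10 counts and 1.17 without the largest TRBV17 clonotype of each mouse. The share of TRBV17 among stop-marked minus productive sequences reversed from -2.93 to 9.10 percentage points with at least 10 counts. The cause was not tested. Without each mouse, the overlap difference of 9 against 3 mice ran from -0.284 to -0.203 (exact permutation p from 0.0364 to 0.109) and the range of the means of the 3 time-separated groups from 0.284 to 0.409 (p from 0.0357 to 0.289). The TRBJ1-5 difference, 0.31 percentage points, turned to -0.22 with at least 10 counts and to -1.54 without mouse 12 (up to 0.60 without another mouse). The TRBJ1-6 difference, 0.72, turned to -0.20 with at least 10 counts, -1.32 over clonotypes of at least 0.1%, and -2.85 without mouse 10 (up to 1.34 without another mouse). The TRBV17 overlap minus that of the other V segments, 0.0553, ran from 0.00687 to 0.0931 without each mouse. The length difference, -1.26 residues, stayed below 0 in every alternative tried, from -1.75 for medians to -0.954 over clonotypes found in 1 mouse only. The overlap difference of 3 against 3 mice, -0.0567, was -0.266 without the largest TRBV17 clonotype of each mouse and ran from -0.0752 to -0.0269 without each mouse. No pairing between groups was possible because the groups share no mouse number. Low counts limit what can be said of clonotypes below 0.1%, where identical sequences were found across libraries.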
